A study of Homo sapiens with 6 samples.

Results

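Genes of splicing factors and heterogeneous nuclear ribonucleoproteins (hnRNPs) were examined in MDA-MB-231 cells, a human breast cancer line that lacks hormone receptors and has a mesenchymal shape. Members were taken by symbol, as the families SRSF, HNRNP, SF3A and SF3B, SNRP, PRPF, U2AF, RBM with a number, and ESRP. They made up 97 of the 16258 genes in the table, with 12 SRSF, 19 HNRNP, 9 SF3, 11 SNRP, 11 PRPF, 33 RBM genes, U2AF2 and ESRP2. Another 21 rows matched the patterns but were pseudogenes by symbol or annotation and were left out. ESRP2 was kept although its symbol ends like that of a pseudogene, and RBM8B was left out because GENCODE annotates it as a processed pseudogene.

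The study compared 3 samples of unsorted cells with 3 samples of highly motile (migratory) cells, each of 1000 cells, seeded in microfluidic devices before RNA was isolated. The labels name no genotype or drug for either group and give no time in the device, so an effect of sorting or of the device cannot be told apart from one of motility. The labels do not state that samples of a group were separate cultures, so p-values reflect only how these samples scatter, and that scatter may be technical. Values are normalised read counts, and the reads behind them ranged from 32789072 to 74227978 in unsorted and from 27032454 to 34511537 in migratory libraries. The line's mesenchymal marker VIM was at 13455 to 15851 in unsorted and 17418 to 20315 in migratory libraries. CDH1, an epithelial cadherin, was at 0 to 28.3 over the 6 libraries. EPCAM, an epithelial surface protein, was nonetheless at 1734 to 3089 in unsorted and 1512 to 2385 in migratory libraries. Of the markers of other cells checked, endothelial PECAM1 was at 1225 to 1850 and 562 to 942. Fibroblast COL1A1 was at 282 to 540 and 90.0 to 255, and COL3A1 at 75.0 to 393 and 67.3 to 215. DCN, PTPRC, CD3E, VWF, HBB and HBA1 had no row.

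Pre-mRNA splicing is carried out by the spliceosome, which assembles on each intron from small nuclear ribonucleoproteins (snRNPs). Sm proteins form a ring on most, but not all, of the snRNAs, and SF3a and SF3b bring the U2 snRNP to the branch point. U2AF reads the polypyrimidine tract, and PRPF proteins act in the U4/U6.U5 tri-snRNP and in catalytic activation. SR proteins (SRSF genes) mostly favour exon inclusion through exonic enhancers, while hnRNPs often silence exons, and the balance of both classes sets many alternative exons. ESRP proteins and several RBM proteins shape the isoforms that differ between epithelial and mesenchymal cells. Gene-level reads report how much RNA of each factor was present, not which exons it caused to be spliced.

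Promoters of 3 members are shown. SRSF1 had the smallest limma p of the SR genes that were tested, and SNRPB and SNRPF stand for the Sm genes. The log2 fold changes of the Sm genes, migratory against unsorted, were all positive. Each is the 250 bases before the RefSeq start in GRCh38.p14, 5′ to 3′ on the gene's strand. The regions are chr17:58007247-58007496 on the minus strand for SRSF1, chr20:2470790-2471039 on the minus strand for SNRPB and chr12:95858702-95858951 on the plus strand for SNRPF. Capitals mark matches to any of 6 motifs searched on both strands.
SRSF1: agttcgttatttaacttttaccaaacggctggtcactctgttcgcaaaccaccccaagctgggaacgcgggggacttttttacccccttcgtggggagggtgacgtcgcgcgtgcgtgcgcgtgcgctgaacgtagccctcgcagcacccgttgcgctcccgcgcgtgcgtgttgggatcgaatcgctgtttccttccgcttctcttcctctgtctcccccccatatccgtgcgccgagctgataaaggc
SNRPB: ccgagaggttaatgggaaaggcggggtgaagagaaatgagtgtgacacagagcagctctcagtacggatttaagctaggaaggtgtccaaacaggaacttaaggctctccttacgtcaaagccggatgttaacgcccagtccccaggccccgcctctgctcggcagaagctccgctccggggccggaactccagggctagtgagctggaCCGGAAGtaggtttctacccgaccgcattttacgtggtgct
SNRPF: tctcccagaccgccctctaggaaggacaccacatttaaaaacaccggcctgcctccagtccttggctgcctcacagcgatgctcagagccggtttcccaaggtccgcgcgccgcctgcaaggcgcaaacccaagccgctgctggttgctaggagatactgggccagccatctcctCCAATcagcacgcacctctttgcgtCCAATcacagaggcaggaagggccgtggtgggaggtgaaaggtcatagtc
The motifs were CCGGAAG for ETS factors, GCGCATGC for part of the NRF1 site, CCAAT for the CCAAT box, CACGTG for the E-box, TATAAA for the TATA box and TGANTCA for AP-1, and none shares its full letters with another. SNRPB held the ETS motif, SNRPF held the CCAAT box at both marked places, and SRSF1 had no match to these letters in this window. RefSeq promoters were matched for 84 members, with 107 starts. The shares below count starts, so a gene with several starts counts more than once. The ETS motif was in 9 of 15 SNRP promoters (60%), 6 of 9 SF3 promoters (66.7%), 2 of 14 SRSF promoters (14.3%), 3 of 28 HNRNP promoters (10.7%), 2 of 7 PRPF promoters (28.6%) and 7 of 33 RBM promoters (21.2%). Over all members the share was 28.0%, beside 8.52% of all 35116 promoters in the table. The CCAAT box was in 41.1% of the members' promoters, 4 of 15 SNRP promoters (26.7%) and 32% of all. The AP-1 motif was in 5.61% of the members' promoters, 3 of 15 SNRP promoters (20%) and 6.57% of all. A match describes these letters and shows no binding.

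The comparison asked which of these genes differ between the isolated motile cells and unsorted cells. Most members differed little, and the tilt was toward higher values in migratory cells: 67 of 96 tested members (69.8%) had a positive log2 fold change, beside 48.1% of all tested genes and 57.4% of genes with a mean of at least 500. Among members with a mean of at least 500 the count was 61 of 83 (73.5%). The members' median log2 fold change was 0.18, beside -0.03 over all 15786 tested genes and 0.08 over genes with a mean of at least 500. A log2 fold change beyond 0.5 in either direction was seen in 12 members (12.5%), against 40.3% of all tested genes and 25.1% of those with a mean of at least 500. SRSF12 had a mean under the minimum of 10 set for testing and was not tested. Values are per sample of cells, so a change in the share of cells that express a gene and a change in RNA per cell cannot be told apart.

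**Figure D1:**
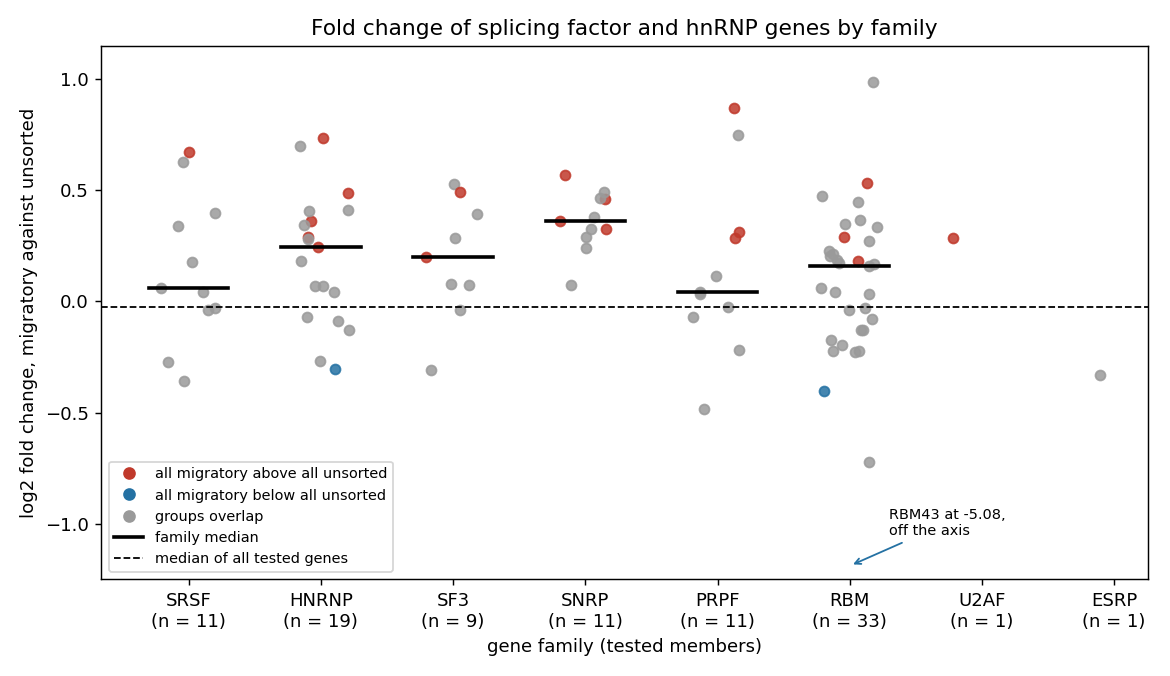
Log2 fold change of each tested member (points), migratory against unsorted, by family, with family medians (thick bars) and the median of all 15786 tested genes (dashed line). All 11 SNRP points lie above 0, the other large families lie on both sides, and RBM43 at -5.08 is off the axis.

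No member passed an adjusted p of 0.05 in limma (moderated linear models on log2 of the value + 1, Benjamini-Hochberg over all tested genes), where 0.234% of all genes did. At an unadjusted limma p under 0.05 there were 11 members (11.5%), beside 17.7% of all genes. Of these 10 were higher, or 10.4% of members beside 7.70% of genes, and 1 was lower, beside 10.0% of genes. At a mean of at least 500 the order turned, with 8 of 83 members higher at this p (9.64%) beside 12.1% of genes. Migratory values lay wholly above unsorted ones for 19 members (19.8%), beside 11.3% of genes, and wholly below for 3 (3.13%), beside 12.5%. At a mean of at least 500 these shares were 20.5% of members beside 16.4% of genes above, and 2.41% beside 10.2% below. Count tests on the reads gave 0 members in edgeR's quasi-likelihood test, where 0.133% of genes were called, and 2 in DESeq2, SRSF1 and RBM43, where 5.91% of genes were called. So the share of members that were called was no larger than that of all genes in any of the 3 tests.

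Among SR proteins, 7 of 11 tested genes had higher values and 4 lower, with a median of 0.06. SRSF1, an SR protein that binds exonic enhancers and acts as an oncoprotein in breast cells when overproduced, was at 2586, 2833 and 3050 normalised read counts in unsorted and 5152, 4585 and 3822 in migratory libraries. Every migratory library was above every unsorted one. The log2 fold change was 0.67 (SE 0.19, 95% interval 0.24 to 1.10), with a limma adjusted p of 0.13 and a DESeq2 adjusted p of 0.024; over its alternatives the adjusted p ranged from 0.024 to 0.37. On the annotation used here 56.6% of its exon sequence is shared with a gene on the same strand, AC015813.2, so its counts are less certain than most. SRSF1 lies on chromosome 17 (58003360 to 58007346, minus strand).

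SRSF2, which recognises exonic enhancers and is often mutated in myeloid neoplasms, was at 5222, 4881 and 4692 in unsorted and 7265, 7303 and 5181 in migratory libraries. Migratory replicate 3 lay within the unsorted range. Its log2 fold change was 0.40 (SE 0.19), and MFSD11 on the opposite strand overlaps 36.7% of its exon sequence. SRSF6, another enhancer-binding SR protein, was at 2503, 2082 and 2546 in unsorted and 5650, 4133 and 2101 in migratory libraries. Migratory replicates 1 and 2 were above all unsorted libraries and replicate 3 was not, and the log2 fold change was 0.63 (SE 0.33). SRSF3, the smallest SR protein, also active in mRNA export, was at 19873, 12126 and 16630 and at 24170, 20195 and 16686, with overlapping groups.

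The remaining SR genes sat near 0 or below. SRSF7, a relative of SRSF3, had a log2 fold change of 0.18 (SE 0.18) and SRSF5 of -0.04 (SE 0.21). SRSF10, which represses splicing when it is dephosphorylated, was among the steadiest members, at 9800 to 11334 over the 6 libraries and a log2 fold change of -0.03 (SE 0.15). SRSF4 was at 4618, 7030 and 5765 in unsorted and 2305, 4794 and 8061 in migratory libraries, so its migratory values spanned both ends of the range. SRSF11 was at 5696 ± 461 and 4750 ± 803 (mean ± SD, n = 3 per group), a log2 fold change of -0.27 (SE 0.19).

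SRSF12, a low-level SR-related gene, had 9, 31 and 38 reads in unsorted libraries and 0, 0 and 1 in migratory ones. Its mean was below the filter, so it had no test. The normalised ratio of unsorted to migratory reads was 44.9, with an exact 95% interval of 7.82 to 1794 that covers counting error only.

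**Figure D2:**
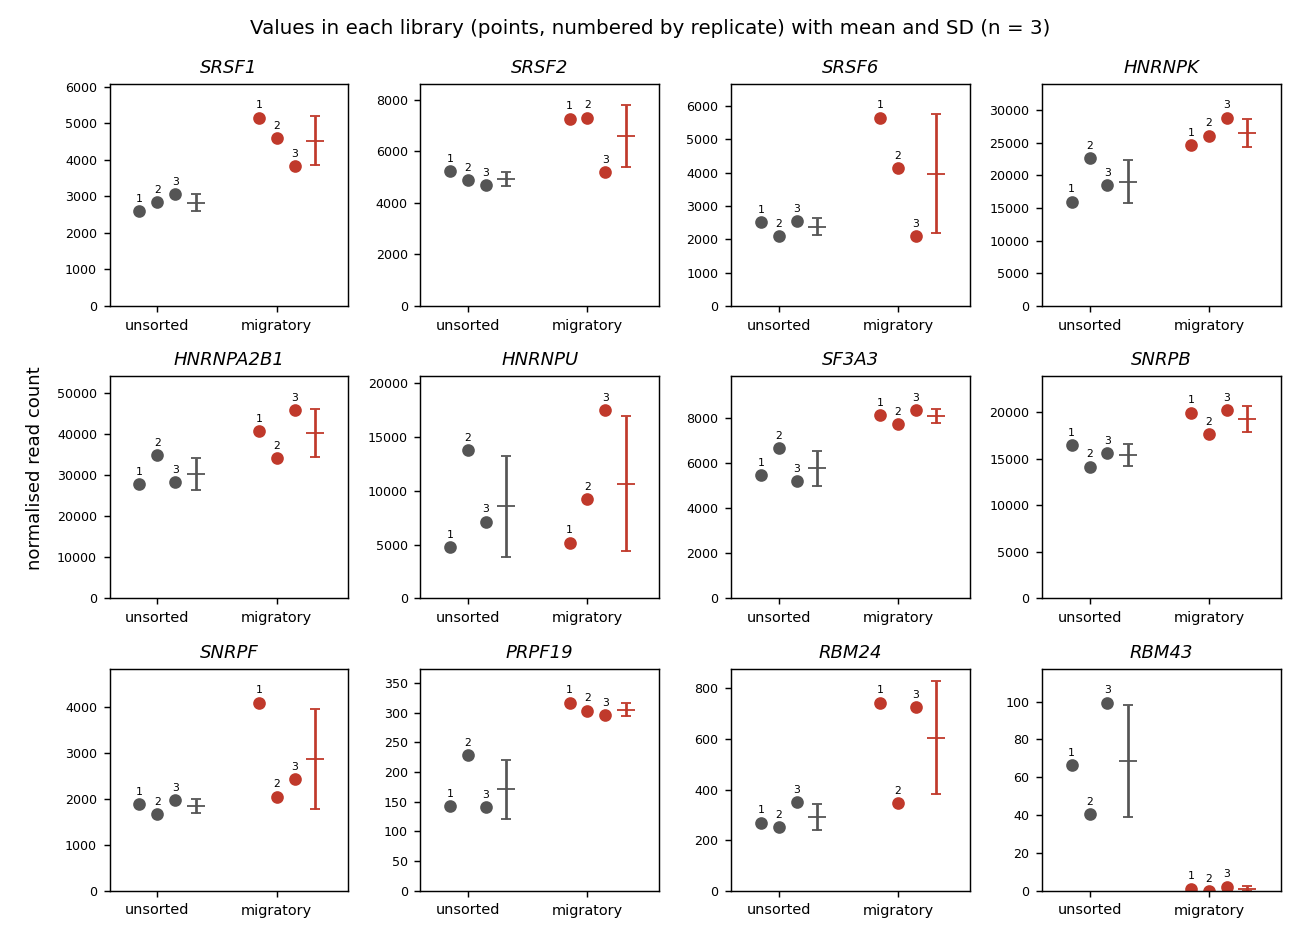
Normalised read count of 12 members in each library (points, numbered by replicate) with group means and SDs (bars, n = 3). SRSF1, HNRNPK, SF3A3, SNRPB, SNRPF and PRPF19 show all migratory points above all unsorted ones, HNRNPU overlaps widely between groups (4739 to 13795 and 5178 to 17487), and RBM43 is at 0 to 2.28 in migratory libraries.

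Among hnRNP genes 14 of 19 had higher values, with a median log2 fold change of 0.25. Of the 19, 4 (21.1%) had an unadjusted limma p under 0.05, all higher. In either direction this share was 17.7% of all genes and 20.5% of those with a mean of at least 500. For higher values alone it was 7.70% and 12.1%. Without unsorted replicate 1 the hnRNP median was 0.11. HNRNPK, which binds cytidine-rich tracts, was at 15995, 22648 and 18568 in unsorted and 24649, 26118 and 28885 in migratory libraries. The groups did not overlap, and the log2 fold change was 0.49 (SE 0.17, limma adjusted p of 0.19). HNRNPA2B1, which represses exons and sorts RNAs to vesicles, was at 27844, 34706 and 28262 and at 40704, 34141 and 45745. Here migratory replicate 2 was just below unsorted replicate 2, and the log2 fold change was 0.41 (SE 0.16, limma adjusted p of 0.24). HNRNPA1, which opposes SRSF1 at competing 5′ splice sites, was at 5944, 6808 and 5629 and at 8581, 7469 and 7525. All its migratory values were above the unsorted ones, with a log2 fold change of 0.36 (SE 0.17). The antagonists SRSF1 and HNRNPA1 thus both had higher means in migratory libraries.

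HNRNPA0, an AU-rich element binder, was at 322, 648 and 484 in unsorted and 694, 668 and 1008 in migratory libraries, without overlap and with a log2 fold change of 0.74 (SE 0.32). HNRNPAB, a relative of HNRNPD, was at 1426, 2716 and 1573 and at 2630, 2503 and 3986. Unsorted replicate 2 lay above migratory replicates 1 and 2, and its log2 fold change was 0.70 (SE 0.29). HNRNPH1, which binds G-rich tracts, was at 4900 ± 136 and 6008 ± 450 without overlap, a log2 fold change of 0.29 (SE 0.17). HNRNPF, of the same G-tract-binding subfamily, had lower values. It was at 15866, 14979 and 15332 in unsorted and 9488, 14075 and 14492 in migratory libraries, with no overlap and a log2 fold change of -0.30 (SE 0.19), which was -0.11 without migratory replicate 1. Neither passed, and the difference between the paralogues was not tested.

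Other abundant hnRNP genes varied more between libraries of one group than between groups. HNRNPC, a uridine-tract binder, was at 11344, 21007 and 13209 and at 13347, 13363 and 20323, a log2 fold change of 0.07 (95% interval -0.50 to 0.64). HNRNPM, which promotes mesenchymal isoforms in breast cancer cells, was at 10418, 12735 and 10174 and at 7463, 13544 and 15374, a log2 fold change of 0.07 (95% interval -0.51 to 0.65). HNRNPU, a nuclear matrix and RNA-binding protein, was at 4739, 13795 and 7131 and at 5178, 9237 and 17487. These intervals do not show that the genes are the same in both groups.

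Many hnRNP and Sm genes have processed pseudogenes, 74 named after HNRNPA1 in GENCODE release 29, and reads that match both a gene and its copies make these counts less certain. Of the 20 tested pseudogene rows left out of the members, 17 (85%) had a positive log2 fold change, beside 69.8% of members. Their median was 0.42, beside 0.18 for members, and none had an unadjusted limma p under 0.05. Whether these reads came from the copies or from the parent genes was not tested. The rows were low: HNRNPA1P10 was at 401 to 529 in unsorted and 568 to 764 in migratory libraries. SNRPEP4 was at 414, 289 and 356 and at 875, 355 and 498, with its highest value in migratory replicate 1, as for its parent SNRPE below.

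The SF3 subunits had higher values for 7 of 9 genes, with a median of 0.20. SF3A3, a subunit of SF3a, was at 5479, 6669 and 5200 in unsorted and 8143, 7757 and 8366 in migratory libraries. The groups were well apart, with a log2 fold change of 0.49 (SE 0.17, limma adjusted p of 0.19). SF3A1, its partner in SF3a, was at 1060, 1958 and 1549 and at 1932, 2799 and 1776, with overlap and a log2 fold change of 0.53 (SE 0.28). SF3B4, a branch-region RNA contact, was the member with the smallest spread within groups, at 4051, 4170 and 3866 and at 4595, 4683 and 4586. Its values did not overlap, for a log2 fold change of 0.20 (SE 0.17). SF3B1, the large SF3b subunit that holds the branch-point adenosine and is mutated in several cancers, was at 7957, 11366 and 6176 and at 7346, 9182 and 9641, a log2 fold change of 0.07 (SE 0.24). SF3B3 had a log2 fold change of 0.39 (SE 0.27) and SF3B5 of 0.28 (SE 0.22), both with overlapping groups.

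U2AF2, the large U2AF subunit, which binds the polypyrimidine tract, was at 288, 296 and 301 in unsorted and 380, 323 and 379 in migratory libraries. The groups did not overlap, and the log2 fold change was 0.29 (SE 0.26, limma adjusted p of 0.59).

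Of the families with several members, the SNRP genes alone had a single direction. All 11 had a positive log2 fold change, from 0.07 to 0.57 with a median of 0.36. None reached an unadjusted limma p of 0.05, and 4 (36.4%) had no overlap between groups, all higher. In either direction, 23.8% of all genes and 26.6% of those with a mean of at least 500 had no overlap. For higher values alone these shares were 11.3% and 16.4%. SNRPB, which encodes Sm B and B′, was at 16455, 14155 and 15614 in unsorted and 19966, 17675 and 20238 in migratory libraries, a log2 fold change of 0.32 (SE 0.15, limma adjusted p of 0.29). SNRPF, the Sm F protein, was at 1894, 1677 and 1985 and at 4102, 2055 and 2441, a log2 fold change of 0.57 (SE 0.27). SNRPD1, the Sm D1 protein, was at 8383, 6235 and 7653 and at 14218, 8581 and 8585, a log2 fold change of 0.46 (SE 0.23). In both SNRPF and SNRPD1 migratory replicate 1 stood well above the other migratory libraries, and without it the log2 fold changes were 0.28 and 0.22.

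The same library led for SNRPE, the Sm E protein, at 7133, 5533 and 5935 in unsorted and 14525, 5458 and 7775 in migratory libraries. There migratory replicate 2 was below every unsorted library. Migratory replicate 1 led again for SNRPG, the Sm G protein, at 6662, 5104 and 6217 and at 13172, 5473 and 8134. Here migratory replicate 2 was within the unsorted range. SNRPA, the A protein of the U1 snRNP, was steadier, at 2344, 1630 and 2198 and at 2698, 2370 and 2791, without overlap. SNRPA1, a U2 snRNP protein, was at 4743 ± 783 and 6150 ± 829, and SNRPC, the C protein of the U1 snRNP, at 19527 ± 1523 and 20795 ± 4335 (n = 3 per group).

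The median deviation of the SNRP genes from their unsorted mean, on the log2 scale, was 0.19, -0.22 and 0.05 in the unsorted libraries and 0.63, 0.13 and 0.27 in the migratory ones, so unsorted replicate 1 was above migratory replicate 2. The 77 ribosomal protein genes, another set with short transcripts, had 0.11, -0.23 and 0.12, and 0.78, 0.14 and 0.30. The sets thus took the same order among the migratory libraries, and both were lowest in unsorted replicate 2. Without migratory replicate 1 the SNRP median log2 fold change was 0.20, and with a trend in GC content and length removed it was 0.37. The part of this library-to-library pattern in the SNRP values was not tested.

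**Figure D3:**
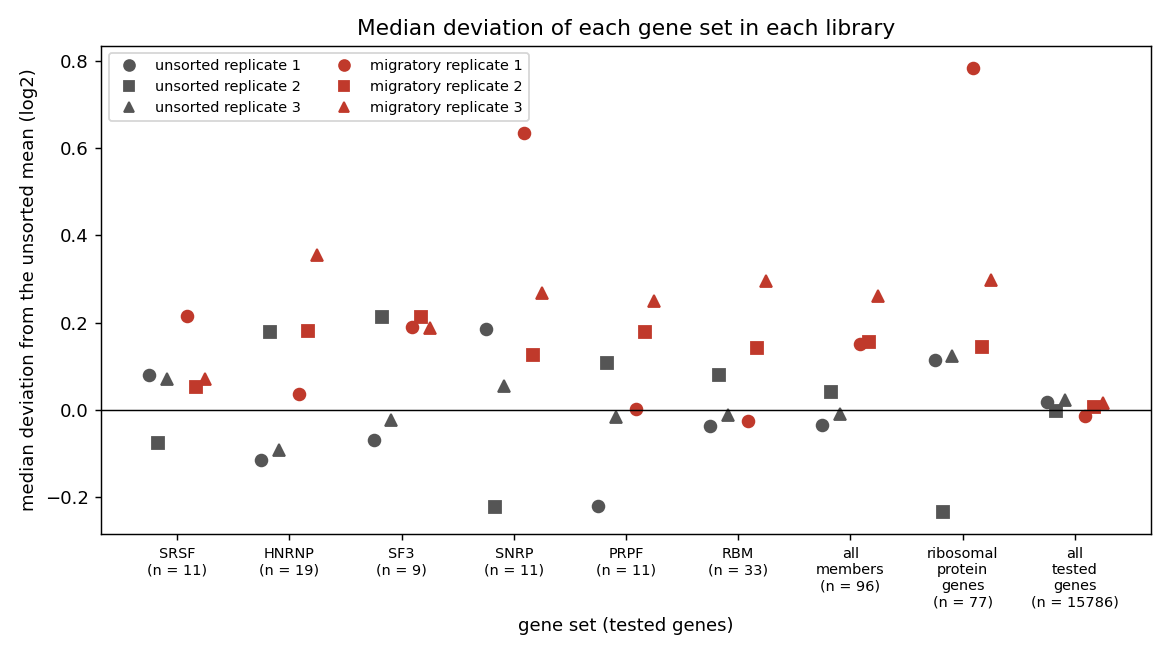
Median deviation from the unsorted mean (log2) of each family, of all 96 tested members, of 77 ribosomal protein genes and of all tested genes, in each library. SNRP and ribosomal protein genes are highest in migratory replicate 1, while HNRNP, PRPF and RBM genes are highest in migratory replicate 3.

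Pre-mRNA processing factors had higher values for 7 of 11 genes and a median of 0.04, which ran from 0.0106 without migratory replicate 2 to 0.17 without unsorted replicate 2. PRPF19, the ubiquitin ligase at the core of the complex that activates the spliceosome, was at 143, 229 and 141 in unsorted and 317, 303 and 295 in migratory libraries. Its groups did not overlap, the ratio of means was 1.79 and the log2 fold change 0.87 (SE 0.31, limma adjusted p of 0.20). PRPF4, a U4/U6 protein, was at 1798, 3786 and 1895 and at 3689, 4126 and 4029, so unsorted replicate 2 was at the migratory level, and the log2 fold change was 0.75 (SE 0.28). PRPF38A, a factor of the precatalytic spliceosome, was at 3219 ± 122 and 3942 ± 434 (n = 3 per group), without overlap. PRPF6, a bridge within the tri-snRNP, was at 9323, 9603 and 7897 and at 3324, 9448 and 8193. Migratory replicate 1 alone was low there, for a log2 fold change of -0.49 (SE 0.34).

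The RBM genes, which share an RNA recognition motif and differ in function, had higher values for 20 of 33 and lower for 13, with a median of 0.16. RBM43 had the smallest p of all members. In mouse fat cells its product represses translation of Ppargc1a mRNA, and no role in splicing is assigned to it here. It had 58, 83 and 122 reads in unsorted libraries and 1, 0 and 2 in migratory ones, or 66.2, 40.5 and 99.5 against 1.23, 0 and 2.28 normalised read counts. The unsorted total of 263 reads against 3 gave a normalised ratio of 50.4, with an exact 95% interval of 17.1 to 246 for counting error. The limma adjusted p was 0.059, that of edgeR 0.064 and that of DESeq2 1.2e-04, and over the alternatives tried for RBM43 it ranged from 1.2e-04 to 0.29. RBM43 lies on chromosome 2 (151247940 to 151261879, minus strand) with no exon overlap, and at 16.4 normalised read counts per kb of transcript it was the fourth lowest of the 97 members even in unsorted cells.

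RBM24, a regulator of muscle-specific exons, was at 269, 253 and 351 in unsorted and 744, 346 and 725 in migratory libraries. It had the highest log2 fold change of the tested members, 0.99 (SE 0.35), with migratory replicate 2 inside the unsorted range, a limma adjusted p of 0.20 and a DESeq2 adjusted p of 0.057. RBM18 was at 2869, 2298 and 2987 and at 4653, 3767 and 3408, without overlap, for a log2 fold change of 0.53 (SE 0.21). RBM8A, the Y14 subunit of the exon junction complex, was at 5563, 5257 and 5363 and at 7573, 5650 and 6704, without overlap, at 0.29 (SE 0.18) on the log2 scale. RBM25, which affects apoptotic isoforms, was at 4746 ± 843 and 5998 ± 340. RBM45 had lower values throughout, at 1071, 960 and 846 and at 782, 708 and 681, a log2 fold change of -0.40 (SE 0.23, limma adjusted p of 0.38).

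RBM5 and RBM10, related regulators of exon skipping with tumour suppressor roles, differed little. RBM10 was at 1097, 2337 and 1359 in unsorted and 876, 2127 and 2112 in migratory libraries, and RBM5 had a log2 fold change of 0.17 (SE 0.26). RBM39, a U2AF-related factor degraded by sulfonamide drugs, was at 13119 ± 586 and 13653 ± 2627. RBM47, a splicing and RNA-stability factor that restrains breast cancer spread, was at 798, 1302 and 886 and at 285, 809 and 887, a log2 fold change of -0.72 (SE 0.42, limma adjusted p of 0.39). RBM47 was chosen after its values were seen, as were SRSF4, SRSF10, SRSF11, SRSF12, HNRNPH1, SF3B4, SNRPE, SNRPG, SNRPC, PRPF6, RBM15, RBM38, SYNCRIP and the genes named for their level per kb.

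ESRP2, an epithelial splicing regulator that favours the epithelial exon of FGFR2, was at 243, 324 and 268 in unsorted and 115, 213 and 433 in migratory libraries. The migratory values spanned the unsorted ones on both sides, and the log2 fold change was -0.33 (SE 0.45, 95% interval -1.34 to 0.68).

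Levels between members were compared per kb of the principal transcript. SNRPC was highest at 23945 normalised read counts per kb over the 6 libraries, followed by SNRPB at 15035, SNRPD2 at 13672, SNRPG at 11936 and SRSF9 at 8342. HNRNPK was at 7753 and HNRNPA2B1 at 5607. SRSF1 was at 1866 per kb in unsorted and 2987 in migratory cells, U2AF2 at 97.5 and 119, and ESRP2 at 73.4 and 66.9. Lengths come from annotation and not from these cells, so an isoform other than the principal one would shift these levels.

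**Figure D4:**
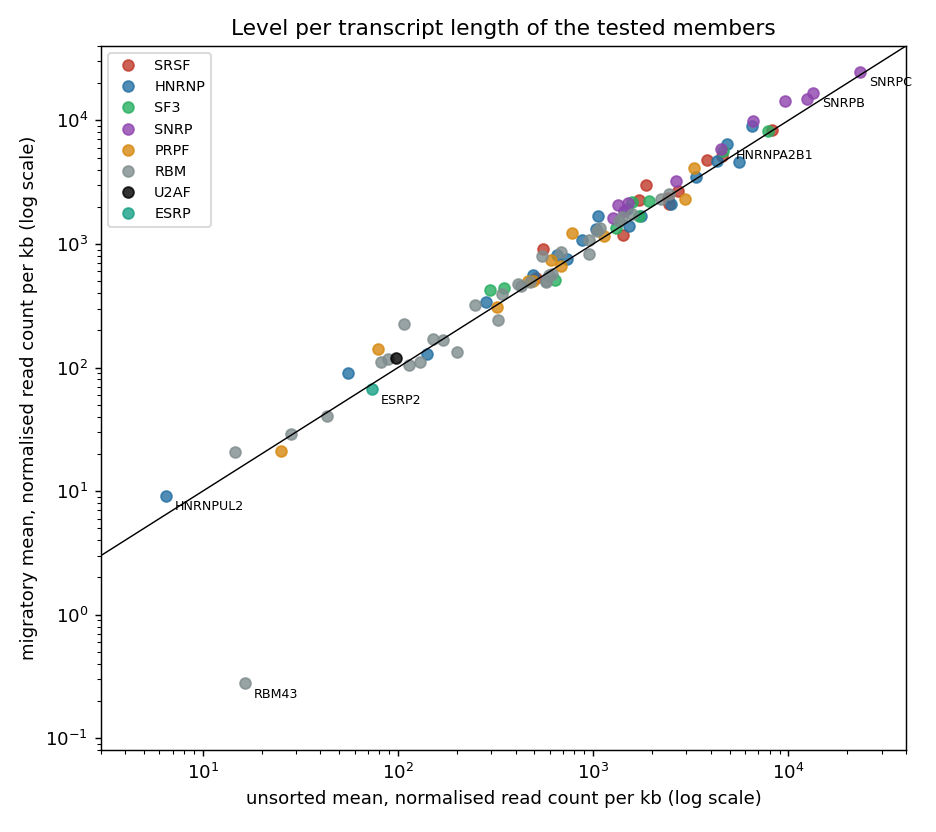
Mean normalised read count per kb of transcript of the 96 tested members in unsorted (x axis) and migratory cells (y axis), both on log scales, coloured by family, with the line of equal level. Points lie close to the line over the whole range except RBM43, at 16.4 unsorted and 0.279 migratory.

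Spread within groups was small for most members, with a median SD of 0.28 on the log2 scale, against 0.40 for all tested genes and 0.28 for genes with a mean of at least 500. It was largest for RBM15, a subunit of the RNA methylation machinery, at 180, 1013 and 254 in unsorted and 234, 474 and 617 in migratory libraries. RBM38, a p53-induced RNA-binding protein, was at 788, 1384 and 1217 and at 445, 827 and 2269. HNRNPU and SRSF4, above, were of the same kind. In the unsorted group, replicate 2 held the highest value for 45 of 96 members (46.9%), beside 36.6% of all tested genes, and in the migratory group replicate 3 did for 40 (41.7%), beside 31.4%. Across members, the excess of unsorted replicate 2 over the other unsorted libraries had a Spearman's rho of 0.40 with transcript length, against 0.33 across 13689 genes, which share these libraries and are not independent. The log2 fold change had a rho of 0.03 with length and -0.08 with GC content across the 96 tested members. Across the 13689 genes these were 0.12 and -0.26. The excess of migratory replicate 1 over the other migratory libraries had a rho of -0.25 with length and -0.29 with GC content across members. Across the 13689 genes it had -0.20 and -0.26.

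Over all 96 tested members the median deviation from the unsorted mean was -0.03, 0.04 and -0.01 in unsorted and 0.15, 0.16 and 0.26 in migratory libraries, on the log2 scale. The 3 migratory libraries were thus above the 3 unsorted ones for the members as a whole, while no single one of the SRSF, HNRNP, SF3, SNRP, PRPF and RBM families was apart in this way. With a trend in GC content and length removed the members' median log2 fold change was 0.12, with 59 of 96 higher. The share of all genes under this correction is not given here, so a tilt beyond that of all genes is not shown for it.

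Other splicing genes were described from 4 lists. Of 62 tested core spliceosome and snRNP proteins outside the families, 41 had higher values and 21 lower, beside 48.1% of all genes higher and 57.4% of those with a mean of at least 500, with a median of 0.18, and none passed limma or DESeq2. PHF5A, a small SF3b subunit, was at 440, 412 and 433 in unsorted and 1106, 554 and 620 in migratory libraries, a log2 fold change of 0.76 (SE 0.30). PPIH, a cyclophilin of the U4/U6 snRNP, was at 1242 ± 277 and 1903 ± 425, without overlap.

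Of 48 other regulators of splice-site choice, 34 had higher and 14 lower values, with a median of 0.11; none passed limma, and 3 passed DESeq2, a share near the 5.91% of all genes. MBNL1, muscleblind, was at 1124, 1190 and 1217 in unsorted and 2067, 2220 and 2417 in migratory libraries, well apart, with a log2 fold change of 0.92 (SE 0.20), a limma adjusted p of 0.080 and a DESeq2 adjusted p of 2.1e-04. TRA2B, an SR-like activator, was at 3732, 4206 and 4617 and at 7736, 6100 and 6782, with a log2 fold change of 0.71 (SE 0.18) and a DESeq2 adjusted p of 0.011. SYNCRIP, also known as hnRNP Q, was the third DESeq2 call, at 2688 ± 220 and 4222 ± 220.

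Higher values were seen in 6 of 8 tested kinases and importers of SR proteins, whose median was 0.43, beside 48.1% of all genes higher. None passed limma and 2 passed DESeq2, which called 5.91% of all genes. SRPK1, which phosphorylates SR proteins in the cytoplasm, was at 6564, 10107 and 6470 in unsorted and 13235, 12859 and 12957 in migratory libraries, a log2 fold change of 0.79 (SE 0.20, limma adjusted p of 0.11, DESeq2 adjusted p of 0.026). TNPO3, the importin that carries phosphorylated SR proteins into the nucleus, was at 2821, 3029 and 2371 and at 3746, 5818 and 4033, a log2 fold change of 0.71 (SE 0.22, DESeq2 adjusted p of 0.048). Both were without overlap, like SRSF1.

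For snRNP assembly, 13 of 17 tested genes were higher in migratory cells (median 0.09), beside 48.1% of all genes. None passed limma, and 1 passed DESeq2, a share near that of all genes (5.91%). WDR77, a subunit of the methylosome that modifies Sm proteins, was at 2591, 2822 and 2274 and at 4712, 4097 and 3480, a log2 fold change of 0.67 (SE 0.20, DESeq2 adjusted p of 0.032). GEMIN8, of the SMN complex, was at 782, 395 and 569 and at 337, 364 and 303, a log2 fold change of -0.75 (SE 0.30).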

How the data were processed

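RNA of 1000 cells per sample was amplified as full-length cDNA and tagmented, per the labels' protocols, a chemistry that keeps no strand and carries no molecular identifiers. The exact intervals of read ratios cover counting error only, and limma's intervals the scatter between samples. The deposited values are a signal: reads of each gene, scaled by a factor common to all genes of a sample and not by length. HISAT2, HTSeq and DESeq2 are named with hg38 and GRCh38.p7 per the submitters' processing notes, without versions or settings. Each value was a whole number of reads times a constant for its sample (100% within 0.01 read), so reads could be recovered for count tests.

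The main test, on the 15786 of 16258 genes with a mean of at least 10, was limma 3.58.1 (R 4.3.3) with a trend of variance on level, on log2(value + 1), two-sided, with Benjamini-Hochberg adjustment over all of them and a threshold of 0.05. For low genes the added 1 makes fold changes smaller than they are. edgeR 4.0.16 and DESeq2 1.42.0 on recovered reads were alternatives, and DESeq2's 3 missing adjusted p-values were kept as missing. An exact permutation test of 3 against 3 cannot go below 0.1 and was not used. The steps were checked on simulated counts. Gene positions, exon overlaps and principal transcripts come from GENCODE release 29 (GRCh38), matched for 97 of 97 members. Promoters come from RefSeq in GRCh38.p14. Members and gene lists were chosen with earlier results of these data known. Genes were named by a rule: the 4 smallest limma p-values per family, the 2 largest rises and falls without overlap and a mean of at least 50, 27 set genes of which 21 have a row here, and the 2 smallest p-values per list of other splicing genes. A result for 1 gene that this rule names is not reported here.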

Additional observations from a re-analysis of the deposited data

How the results depend on the processing

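With no member called in limma, 1 was called, RBM43 in each case, under a pseudocount of 8, under upper-quartile scaling, with array weights and after removal of a GC and length trend (with or without the replicate block), and 2 in DESeq2. The members' median was 0.12 with the GC and length trend removed, with or without the block. Among the 26 members with no named pseudogene and no exon overlap 22 were higher, with a median of 0.14. Members at an unadjusted limma p under 0.05 numbered 11 in the main fit (11.5%, beside 17.7% of all genes). They numbered 18 with array weights, 18 with the replicate block and 22 with the block and the trend removed. The share of all genes in these other settings is not given here, so the rise is not a result about the members. Leaving out each library in turn gave 4 to 13 members at this p (4 without unsorted replicate 3 and 5 without unsorted replicate 1). Members without overlap between groups numbered 27 to 36, against 22 with all libraries. With a library left out fewer values need to lie apart, so this count can only stay or rise for any genes. The share of all genes is not given for these counts, so they are no result about the members. The SRSF median ran from 0.0301 (without unsorted replicate 2) to 0.16 and the RBM median from -0.0021 (without migratory replicate 3) to 0.21.

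Same-numbered samples deviated together with correlations of 0.12, 0.11 and 0.04. Replicates 1 and 2 of either group correlated best with their own number, and replicate 3 of either group did not. The numbers were therefore not taken as pairs, but a pairing is not excluded. With the block limma called 114 genes in place of 37, and 0 members. Taking the symbol rule literally, chosen after seeing the data, gave 68 of 96 higher.

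Of 794 comparisons of the 40 named members with an alternative, 25 changed sign, all in 9 genes with log2 fold changes of at most 0.33 in size. With the trend removed, with or without the block, HNRNPC was at -0.13, RBM39 at -0.14 and SF3B1 at -0.12. With single libraries left out the ranges were -0.82 to 0.14 for ESRP2, -0.13 to 0.33 for HNRNPC, -0.14 to 0.38 for HNRNPM, -0.16 to 0.71 for HNRNPU, -0.17 to 0.48 for RBM10, -0.10 to 0.18 for RBM39, -0.0132 to 0.39 for RBM5, -0.13 to 0.31 for SF3B1 and -0.19 to 0.0879 for SRSF5. The cause of these changes was not tested.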
